A study of Drosophila melanogaster with 9 samples.

Results

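Intermittent hypoxia (IH) was set against normoxia (NC) in whole adult flies. The arrays for this comparison were 6 of the 9 in the series, 3 of IH and 3 of NC, and the other 3 were of constant hypoxia (CH). All groups were adult Canton-S, a wild type laboratory stock, and every sample was of 25 males and females together, 5 to 6 days old. For 2.5 h the IH flies passed through cycles with a 4 min hold at 1% O2 and a 4 min hold at 21% O2. Ramps joined the levels, with a slower fall than rise of O2, so that a cycle was longer than its holds. The CH flies stayed in 1% O2, and the NC flies were kept in normoxia. RNA of whole flies was hybridized to the Affymetrix Drosophila Genome 2.0 array, on which 1 or more sets of short probes read a gene. The description covers 18769 probe sets. It is centred on the 10263 bright ones, whose mean signal over the 9 arrays was at least 500, and in them on those whose 3 IH arrays all lay above or all lay below the 3 NC arrays: 208 probe sets lay above and 303 below, 511 in all. Both sexes and all tissues were in every sample, so that fewer cells of a type and less RNA per cell cannot be told apart in any value given here. Whether the 3 samples of a group came from separate exposures is not given in the sources used here, and a p-value then measures only how far these samples differ, which may be technical.

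In flies and mammals, low oxygen acts through a transcription factor of the HIF family, called Sima in the fly, which is degraded when oxygen is present. Intermittent hypoxia adds repeated reoxygenation, which is known as a source of reactive oxygen species. Fly tissues meet oxidative and chemical stress with cytochrome P450s, which oxidize lipophilic compounds, with glutathione S-transferases and UDP-glycosyltransferases, which conjugate them, and with ABC and other membrane transporters, which carry them out of cells.

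No probe set of the 18769 passed the full test, with 0 higher (0%) and 0 lower (0%) in IH than in NC. That test asked for a limma adjusted p (Benjamini-Hochberg, over all probe sets) under 0.05. It also took the fold and direction limits of the study's methods, with all 3 IH arrays on one side of the NC mean and a fold of more than 1.5 or less than 0.67. The study used another program, VAMPIRE, for its false discovery rate and lists genes altered in IH. It also reports real-time PCR for Mdr49, MFS14 and Drat that went the same way as its arrays. The counts of 0 are thus those of limma and not of the study's own test. The smallest limma adjusted p was 0.154, and 674 probe sets had an unadjusted p under 0.05. That is a smaller share of the 18769 than the 0.05 to be had where no probe set differs and the arrays are independent. With the replicate number of the labels as a block, 1057 had an unadjusted p under 0.05, which is more than that share. The share thus depended on the fit. With the same fold and direction limits but an unadjusted p under 0.05, 228 probe sets were above NC (1.21% of those tested) and 361 below (1.92%). Changes given below are differences of log2(signal + 16) between the means of the 3 IH and the 3 NC arrays with the limma standard error, and none of them is a called change unless a fit is named in which it passed. The median difference was -0.02 over all probe sets and -0.02 over the bright ones.

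The 208 bright probe sets that lay above NC were 2.03% of the 10263, and the 303 that lay below were 2.95%. This is the rule by which they were chosen, and nothing is read from the counts themselves. Where the groups do not differ and the arrays are independent, 3 against 3 arrays lie wholly apart, on either side, with a probability of 0.1. Here 4.98% of the bright probe sets did, so the counts are not a measure of how many genes changed. Of the 208, 189 carry 1 gene symbol and stand for 189 genes, and of the 303, 277 carry 1 symbol and stand for 276 genes. Most differences were small. The median was 0.26 in the probe sets above NC, and 29 of them were past 1.5-fold. It was -0.34 in those below, and 40 of them were under 0.67-fold. In the 208 probe sets, the IH array nearest to NC was IH1 in 102, IH2 in 71 and IH3 in 35. In the 303, it was IH2 in 145, IH1 in 101 and IH3 in 57. With each array centred on its own median, 280 bright probe sets lay above NC and 229 below, so which side held more probe sets depended on the scaling. The brightness limit left CG3014 (mean signal over the 9 arrays 500.1) and Ugt304A1 (501) just inside, and CG8248 (499) and CG13707 (498) just outside, and all of these had their 3 IH arrays below NC.

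The largest differences above NC were in an alkaline phosphatase, a protein with a chitin-binding domain and ABC transporters. The signal of phu, an alkaline phosphatase, was 2818, 1110.4 and 1817 in IH, against 306, 649.6 and 364 in NC. All IH arrays stood clear of NC, and the spread was wide in both groups, with IH2 the lowest IH array and NC2 the highest NC array. The difference was 2.06 ± 0.45 on the log2 scale, or 4.16-fold, and its limma adjusted p was 0.828. Alp2, another alkaline phosphatase, had 4109, 8329 and 5301 in IH, against 2867, 3839.5 and 3792 in NC, a difference of 0.70 ± 0.33. CG9928 was placed in the fixed list of alkaline phosphatases, but its membership of the family was not checked here. It lay below NC, with 14027, 18194 and 10659.9 in IH, against 19158, 23240.3 and 22313 in NC (-0.62 ± 0.23). The list of alkaline phosphatases holds 14 genes, 9 of them bright, of which 2 lay above NC and 1, CG9928, below. Of all bright genes with a named probe set, 2.12% lay above NC and 3.03% below.

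CG3348, which has the chitin-binding domain of peritrophic matrix proteins, had a signal of 7947, 10873 and 11268 in IH, against 3956, 3124 and 3586 in NC. The lowest IH array was about 2 times the highest NC array, and the difference was 1.48 ± 0.38, or 2.79-fold (limma adjusted p = 0.907). Of the 120 cuticle and chitin genes that were fixed as a list, to which CG3348 does not belong, 29 were bright and none of these lay wholly above or wholly below NC.

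Mdr50 and Mdr49 code for P-glycoproteins, ABC transporters that pump lipophilic compounds and drugs out of cells. Mdr50 had 1224, 3579.8 and 2489 in IH, against 928, 921 and 1010.5 in NC, a difference of 1.21 ± 0.42. Its NC arrays lay close together, and the highest IH array was nearly 3 times the lowest one. Mdr49 had 6830.2, 12422 and 7695 in IH, against 4936, 4148 and 4128 in NC, a difference of 0.98 ± 0.24. In both genes IH2 was the highest array and IH1 the lowest of the IH arrays. MRP, an ABC transporter of conjugated compounds, also lay above NC, by 0.12. The white family gene st, a carrier of eye pigment precursors, lay below, with 908, 1361 and 1196 in IH, against 1481, 1539 and 1628 in NC (-0.44 ± 0.20), and so did CG11069, by -0.40. The other 19 of 24 bright ABC transporter genes had overlapping arrays, so that 3 lay above NC and 2 below, beside 2.12% and 3.03% of all bright genes. Mrp4, which the study names under its older symbol CG14709, was dim and overlapped, with 193, 206 and 242 in IH, against 278, 222 and 112 in NC.

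**Figure D1:**
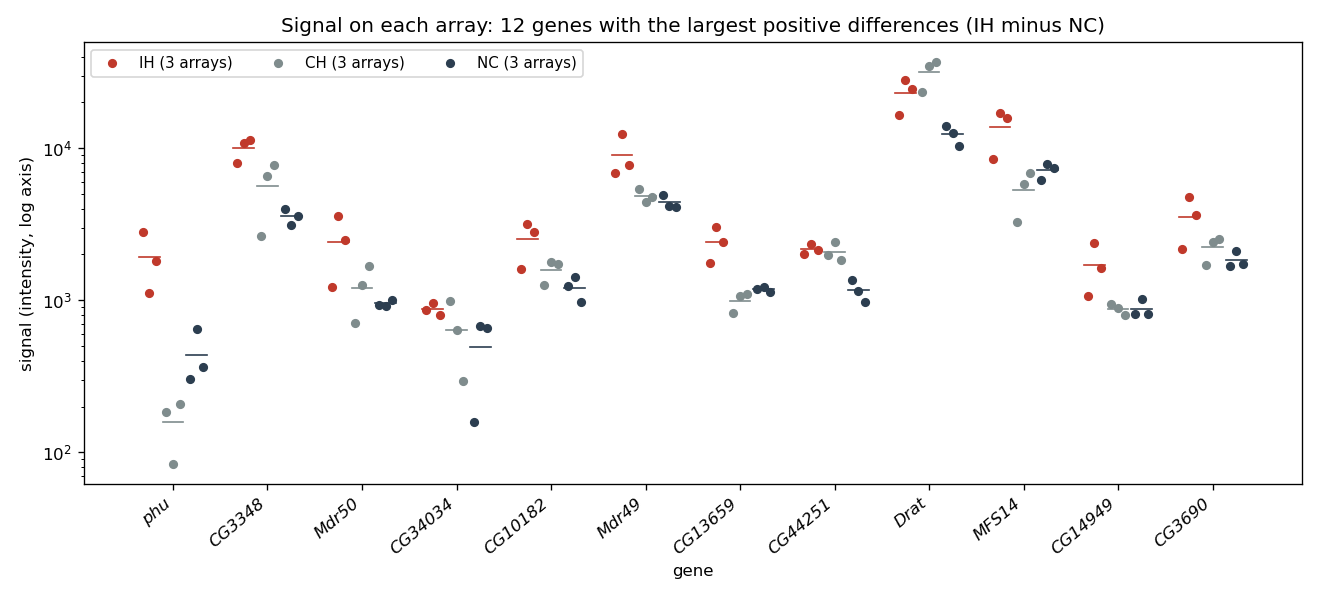
Signal of the 12 genes with the largest positive difference, on a log axis. Each point is 1 array, in the order IH, CH and NC from the left for each gene, and the short lines are the means of 3 arrays. No IH point lies at or below an NC point, while the CH points of phu and CG13659 lie below NC and those of Drat and CG44251 lie above it.

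Other transporters and enzymes followed. MFS14, a transporter of the major facilitator superfamily, had 8424, 17002 and 15832 in IH, against 6220.1, 7873 and 7355 in NC (0.88 ± 0.35). The IH1 array was near NC2, and the other IH arrays were about 2 times the NC values. Drat, the former CG1600, is a protein of the alcohol dehydrogenase family. It had 16603, 28092 and 24609 in IH, against 13948, 12663 and 10273 in NC, a difference of 0.89 ± 0.27. CG44251, which the study lists as CG3884, had 2016, 2332 and 2152 in IH, against 1362, 1156 and 976 in NC in the probe set chosen by the rule (0.90 ± 0.19), and its second probe set gave 0.39 ± 0.28 with overlapping arrays.

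CG13659 is related to the ecdysteroid kinases, which phosphorylate the moulting hormone in insects. Its signal was 1748, 3043 and 2405 in IH, against 1194, 1231 and 1129.9 in NC, with a narrow NC group and a difference of 0.97 ± 0.23. CG10182 had 1594, 3159 and 2792 in IH, against 1235, 1415 and 967 in NC (1.01 ± 0.29). CG14949 had 1073, 2382 and 1629 in IH, against 809, 1021 and 814 in NC (0.87 ± 0.28) and CG3690 had 2168, 4807 and 3622 in IH, against 1692, 2119 and 1737 in NC (0.86 ± 0.30). In these last 3 genes IH1 was the IH array nearest to NC. CG34034 had 867, 958 and 798 in IH, against 158, 674 and 657 in NC. Its mean difference of 1.04 ± 0.59 included 1 low array, NC1, and without that array it was 0.38.

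Of the other genes that the study names in IH, MtnD, a metallothionein that binds metal ions, had 25590.4, 30735 and 30137 in IH, against 12806, 19036 and 17895 in NC. The IH arrays did not overlap with NC and the difference was 0.81 ± 0.20, with a limma adjusted p of 0.907. Taken within the replicate number, the differences were 1.00, 0.69 and 0.75, the closest agreement of any gene in the plot of differences within each replicate number. A fit chosen after the data were seen took the replicate number as a block and let the variance depend on the signal, and in it MtnD was the 1 probe set called higher (0.00533% of those tested, limma adjusted p = 0.0259). Of the 14 bright genes of metallothioneins and metal handling, MtnD alone lay clear of NC.

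Cyp309a1, a cytochrome P450, had 3348, 3932 and 4171 in IH, against 2546, 1974 and 2492 in NC (0.71 ± 0.18). Prx6c, a peroxiredoxin that reduces peroxides and that the study names as Prx2540-2, had 25897, 39933 and 41644 in IH, against 25409, 21805 and 23954 in NC (0.57 ± 0.22). A probe set shared by Prx6b, CG12896 and Prx6c gave 0.71, and the signals of these near copies cannot be separated by it. Cyp6a23 had 6631, 19915 and 16701 in IH, against 6337, 8159.5 and 6798 in NC, and CG8745, an aminotransferase, had 4569, 9053 and 9688 in IH, against 4121, 4828 and 4960.3 in NC. Both overlapped with NC through IH1 alone, and their differences were 0.88 ± 0.40 and 0.67 ± 0.31.

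The largest differences below NC were in genes that are given here by their symbols alone, with no role stated. CG34330, listed by the study as CG33254, had 1218, 2351 and 1921 in IH, against 5366, 9005 and 10288 in NC, a difference of -2.16 ± 0.43 or 0.224-fold (limma adjusted p = 0.828). The highest IH array was well under the lowest NC array. The differences within replicate numbers were -2.13, -1.93 and -2.41, and in the fit with the replicate block and a variance that depends on the signal it was the 1 probe set called lower (0.00533%, limma adjusted p = 1.05e-04). CG15263 had 838, 471 and 358 in IH, against 3368, 1374 and 1486 in NC (-1.84 ± 0.43), and in that fit it did not pass (adjusted p = 0.0808). CG13040 had 341, 147 and 328 in IH, against 562, 525 and 900.4 in NC (-1.28 ± 0.36).

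**Figure D2:**
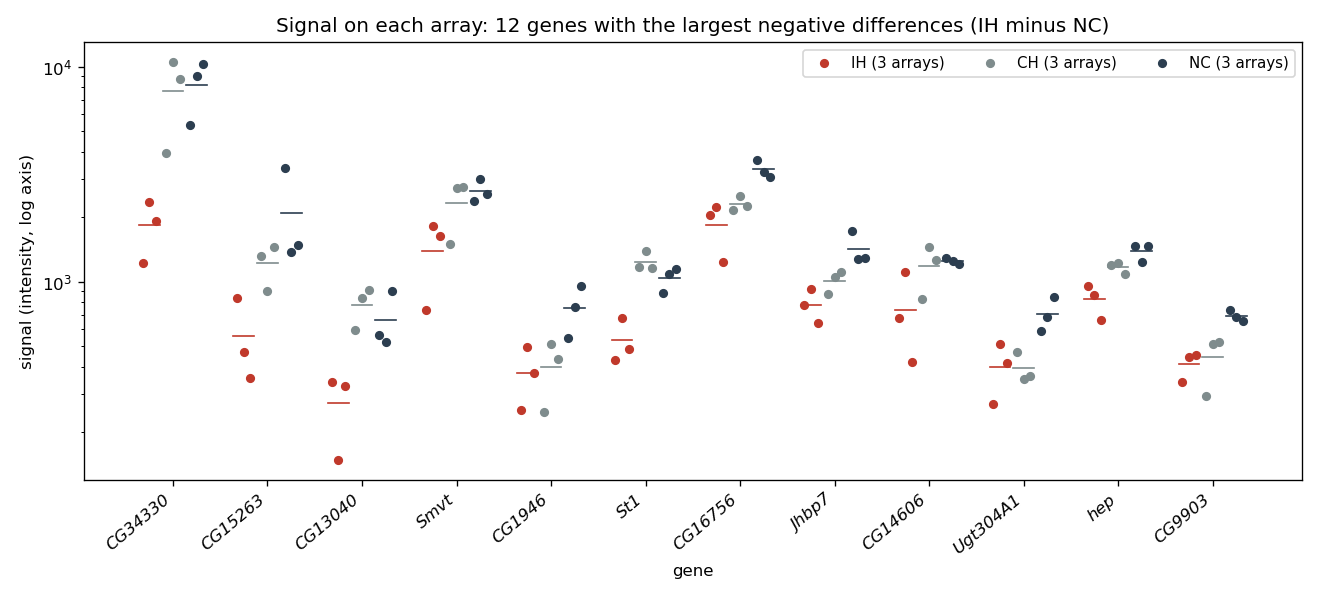
Signal of the 12 genes with the largest negative difference, on a log axis, with the 3 arrays of IH, CH and NC from the left for each gene and lines at the group means. The IH points of CG34330 lie at 1218, 2351 and 1921, all below its NC points at 5366, 9005 and 10288, while its CH points, at 3946, 10467 and 8798, spread from below to above those of NC.

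Genes of small molecule transport and conjugation were among the next. Smvt, a sodium-dependent multivitamin transporter that the study lists as CG2191, had 741, 1806 and 1633 in IH, against 2359, 2995 and 2554 in NC, a ratio of 0.498 with a standard error of 0.38 on the log2 scale, and without IH1 the log2 difference was -0.61. St1 is a sulfotransferase, which adds sulfate to small molecules. Its signal was 432, 678 and 487 in IH, against 885, 1089 and 1147 in NC (-0.96 ± 0.21). Ugt304A1, a UDP-glycosyltransferase, had 269, 514 and 420.1 in IH, against 586, 682 and 848 in NC (-0.82 ± 0.27). In St1 and Ugt304A1, IH2 was the array nearest to NC.

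CG1946, of the family of diacylglycerol acyltransferases that make triglycerides, had 254, 495 and 374 in IH, against 544, 760.2 and 956 in NC (-0.99 ± 0.35). CG16756, a lysozyme-like gene that the study names, had 2041, 2233 and 1227 in IH, against 3682, 3249 and 3058 in NC (-0.90 ± 0.24). Jhbp7, of a family of juvenile hormone-binding proteins, had 778, 921 and 639 in IH, against 1712, 1279 and 1282 in NC (-0.86 ± 0.21). The NC arrays of CG16756 were tight, while its IH3 array was well under the other IH arrays. CG14606 had 674, 1105 and 424 in IH, against 1289, 1240.2 and 1212 in NC (-0.86 ± 0.35) and CG9903 had 341, 448 and 456 in IH, against 738, 688 and 656 in NC (-0.73 ± 0.25). The gene hep codes for the kinase that activates JNK in stress signalling. It had 954, 867 and 665 in IH, against 1470, 1229.8 and 1467 in NC in the probe set chosen by the rule (-0.74 ± 0.18), but its other 2 probe sets overlapped with differences of 0.10 and -0.06.

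**Figure D3:**
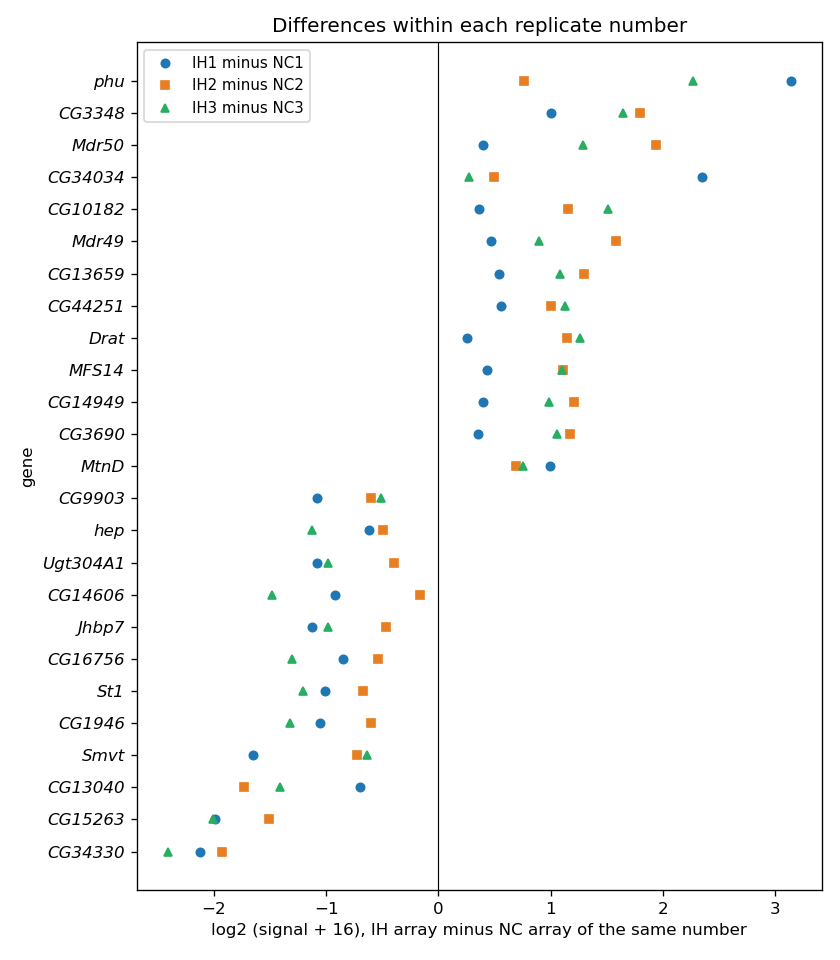
Difference of log2(signal + 16) between the IH and the NC array of the same replicate number, for the 24 genes of the plots of signal by array and MtnD. The 3 symbols of a gene are its 3 replicate numbers, the line at 0 is no difference, and the closest symbols on the lower side are those of CG34330 (-2.13, -1.93 and -2.41) and CG15263.

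The size of the differences also varied with the replicate number. In 10 of the 12 genes with the largest positive difference, the replicate 1 pair gave the smallest difference of the 3. In phu and CG34034 it gave the largest, with 3.14 and 2.34. When only the pair of the same number was compared, 922 bright probe sets (8.98%) had IH above NC in all 3 pairs and 1189 (11.6%) had it below. Without the replicate 1 arrays, 1233 bright probe sets (12%) lay above NC and 1625 (15.8%) below. Where the groups do not differ, both rules are met more often than that of 3 against 3 arrays lying apart. These larger counts therefore do not show that more genes differed.

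In a fit that gives each array a weight estimated from its own spread, 57 probe sets were called higher (0.304%) and 102 lower (0.543%). The weights were 0.41 for IH1, 0.25 for IH2 and 5.50 for IH3, against 0.62 to 1.71 for the NC arrays. The IH side of these calls thus rested mainly on 1 array, IH3, and their p-values take little account of the spread among the IH arrays. Of the calls, 14 of those higher and 23 of those lower were bright, and 13 and 19 of these had arrays that did not overlap. That overlap is of the same values and adds no support to the calls. They included phu (1.98, adjusted p = 0.049), CG3348 (1.67, adjusted p = 0.0391), Mdr49 (0.87, adjusted p = 0.0391), Drat (1.03, adjusted p = 0.045) and MtnD (0.77, adjusted p = 0.049) on the upper side. On the lower side they included CG34330 (-2.22, adjusted p = 0.0322), CG15263 (-2.05, adjusted p = 0.0391), St1 (-1.11, adjusted p = 0.0322), Jhbp7 (-1.01, adjusted p = 0.0333) and hep (-0.97, adjusted p = 0.0344). Mdr50 and MFS14 were not called in that fit.

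The 5 genes with the smallest p were all under the brightness limit. In all of them but CG42262, each array of IH or each array of NC read under 100, and there the added 16 understates the fold. The gene yellow-d2, of the yellow family, had 103, 129 and 155 in IH, against 26.2, 17 and 20.6 in NC. The lowest IH array was more than 3 times the highest NC array, the difference was 1.95 ± 0.20, and the limma adjusted p was 0.154. The cell adhesion gene fred had 174, 228 and 246 in IH, against 59.8, 78.8 and 24.9 in NC (1.79 ± 0.32), and CG42262 had 446, 636 and 546 in IH, against 292, 246 and 226 in NC (1.04 ± 0.19). TotF, of the Turandot family of stress-induced secreted proteins, had 45.4, 21.6 and 30.7 in IH, against 169.7, 124 and 187 in NC (-1.87 ± 0.28). The gene grh codes for a transcription factor of epithelial and cuticle genes. Its dim probe set had 24.1, 46.8 and 85.4 in IH, against 244, 185 and 179 in NC (-1.77 ± 0.33) and its brighter probe set gave -0.27.

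Cytochrome P450s and glutathione S-transferases had members on both sides. Over all genes with a named probe set, 183 of 8623 bright genes (2.12%) lay above NC and 261 (3.03%) below, and 45.0% of 11984 genes had a difference above 0. The counts of every list are to be read beside these shares. Of the 57 bright cytochrome P450 genes, 4 lay above NC and 4 below, and the list of 84 had a median of -0.13 (-0.05 with each array centred on its median, and -0.18 to 0.01 with 1 array left out, where it turned sign without IH1). Cyp12a5, a mitochondrial P450, had 4846, 6489 and 4826 in IH, against 3414, 3151 and 2949 in NC (0.75 ± 0.18). Cyp9b2 (0.50) and Cyp313a4 (0.34) were the others above NC beside Cyp309a1. Those below were Cyp6a18, with 739, 1525 and 966 in IH, against 1736, 1719 and 1654 in NC (-0.72 ± 0.25), and Cyp4ac3 (-0.47), Cyp6a9 (-0.40) and Cyp6t1 (-0.25).

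Glutathione S-transferases conjugate glutathione to electrophiles, and the GstD and GstE classes are known to respond to oxidative stress. GstE1 had 3039, 1992 and 1989.7 in IH, against 1773, 969.8 and 1241 in NC (0.82 ± 0.27). GstE3 had 8202, 9664 and 8613 in IH, against 7387, 5576 and 5141 in NC (0.56 ± 0.18). GstD10 had 1159.6, 1167 and 1295 in IH, against 844, 874 and 806 in NC (0.51 ± 0.16). The CH arrays of these genes also lay above NC, by 1.76 in GstE1, 1.02 in GstE3 and 0.74 in GstD10. Any part of reoxygenation in these values was not tested. Of the 28 bright genes of the list, these 3 lay above NC and GstT4 (-0.37) and GstT3 (-0.26) below, and the median of all 36 was -0.04 (0.02 with quantile normalization and 0.04 with centring). Of the 20 bright UDP-glycosyltransferase genes, Ugt304A1 and Ugt303B3 (-0.51) lay below NC and 0 above. Among 18 bright antioxidant enzymes Prx6c alone stood clear of NC in IH, and its CH arrays also lay above NC, by 0.52.

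**Figure D4:**
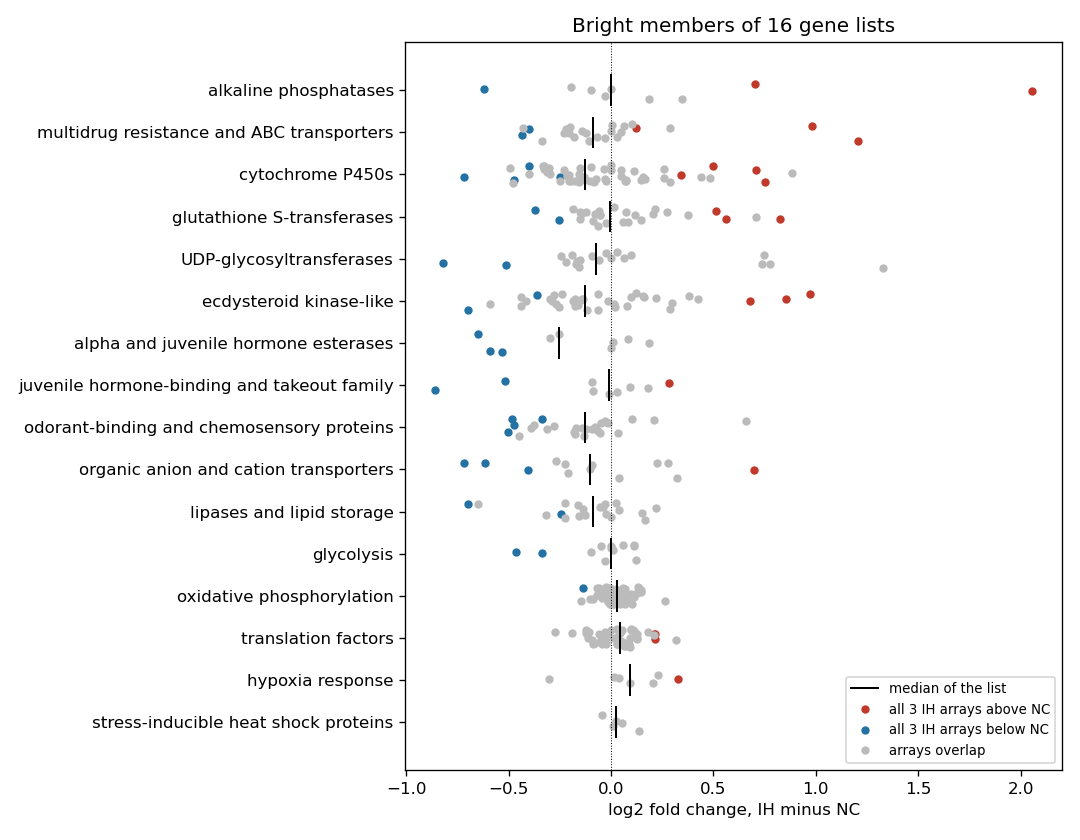
Difference of log2(signal + 16), IH minus NC, of each bright gene in 16 lists. Red points are genes whose 3 IH arrays lie above the 3 NC arrays, blue points those below, grey points those with overlapping arrays, and the black line is the median of the bright members, which lies between -0.26 (alpha and juvenile hormone esterases) and 0.09 (hypoxia response).

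A further 4 lists were put together after the values had been seen, and their counts are a description. Of 38 bright genes related to ecdysteroid kinases, CG13659, CG6830 and CG10562 lay above NC, and CG6830 had 14651, 20487 and 15059.8 in IH, against 12268, 8273 and 7514 in NC (0.85 ± 0.23). CG9259 and CG6908 lay below (-0.70 and -0.36). Of 9 bright alpha and juvenile hormone esterases, which cleave ester bonds of hormones and foreign compounds, 3 lay below, beside 3.03% of all bright genes. The esterase alpha-Est8 had 1394, 1945 and 1520.3 in IH, against 2293, 2390.4 and 2594 in NC (-0.59 ± 0.17), alpha-Est2 had 1464, 1369.6 and 1584 in IH, against 2080.2, 2081 and 2246 in NC (-0.53 ± 0.16), and Jhedup differed by -0.65. In alpha-Est2 the gap between the groups was wider than the range within either.

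Among 13 bright organic anion and cation transporters, CG8654 had 975, 1702 and 1233 in IH, against 1970.4, 2162 and 2181 in NC (-0.72 ± 0.22). Oatp58Db (-0.62) and Oatp74D (-0.41), organic anion carriers, also lay below, and CG17752 lay above (0.70). Oatp74D is known as the importer of ecdysone into fly cells. Of 9 bright genes of the juvenile hormone-binding and takeout family, Jhbp7 and Jhbp12 (-0.52) lay below and Jhbp5 (0.29) above.

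Odorant-binding proteins, which are secreted and carry small hydrophobic molecules, had 4 of 28 bright members below NC and 0 above. The shares of all bright genes were 3.03% and 2.12%. Obp57a had 3754, 4151 and 3148 in IH, against 6313, 4365 and 4895 in NC (-0.48 ± 0.21), Obp69a had 686, 696 and 662 in IH, against 1248, 892 and 823 in NC (-0.50 ± 0.26), and Obp19a (-0.47) and Obp99a (-0.34) were the others. The list of 53 had a median of -0.14 (-0.06 with centring, -0.29 without IH2 and -0.05 without IH3). Of 20 bright genes of lipases and lipid storage, FASN3, a fatty acid synthase, had 5853, 8266 and 5464 in IH, against 10565, 11533 and 9267 in NC (-0.70 ± 0.21) and NLaz, a lipocalin, differed by -0.25, and none lay above NC.

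In energy metabolism the arrays overlapped for most genes. Of 12 glycolysis genes, Ald1, the aldolase, had 32131, 36556 and 35380.4 in IH, against 38829.9, 57716 and 48634 in NC in its brighter probe set (-0.46 ± 0.24), whereas its other probe set gave 0.00. Hex-C, a hexokinase, had 6604, 7701 and 6765 in IH, against 8978, 8890.5 and 8729 in NC (-0.34 ± 0.15). The trehalase gene Treh (-0.19) and fbp, for fructose-1,6-bisphosphatase (-0.12), lay below NC. Of 53 bright genes of oxidative phosphorylation, ND-B14 lay below and 0 above, and 0 of the 13 bright genes of the tricarboxylic acid cycle lay above or below. The median was 0.03 for oxidative phosphorylation, -0.03 with quantile normalization and -0.08 to 0.14 with 1 array left out.

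In the hypoxia response list and the heat shock genes, the arrays of IH and NC overlapped in all bright genes but ImpL2. ImpL2, a secreted insulin-binding protein that is known to respond to hypoxia, had 11746, 14132 and 12643 in IH, against 9572, 11488 and 9645 in NC (0.33 ± 0.19), and it was the only one of 7 bright genes in that list to lie above NC. Hph, the prolyl hydroxylase that marks Sima for degradation, had 15132, 10201 and 12870 in IH, against 17565, 14134 and 15049 in NC in its brighter probe set (-0.30 ± 0.19) and -0.37 in the other, and sima itself differed by 0.23 ± 0.21, with overlapping arrays in each. Of 5 stress-inducible heat shock genes with a probe set of their own 0 lay above or below, and Hsp68 had 1098, 1620 and 955 in IH, against 852, 1382 and 1085 in NC (0.14 ± 0.25). The probe set shared by Hsp70Aa and Hsp70Ab, copies of the main inducible chaperone, had 1622, 1499 and 1830.4 in IH, against 2086, 1500.4 and 1100.2 in NC (0.12 ± 0.25), and the groups overlapped. Antimicrobial peptides and the list of pattern recognition proteins and lysozymes had 0 bright genes above and 0 below.

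Among genes of growth and synthesis the differences were small. Of 47 bright translation factors, eIF2beta (0.21), eIF3a (0.21) and eIF3k (0.21) lay above and 0 below, and 31 of the 48 in the list had a difference above 0, with a median of 0.04. Of 41 cytoplasmic ribosomal protein genes, 31 were above 0 with a median of 0.07, which was -0.01 with quantile normalization. Over all genes with a named probe set, 45.0% had a difference above 0, and 2.12% of the bright ones lay above NC. In purine synthesis, Pfas had 7337, 6418 and 6089.6 in IH, against 4541, 5607 and 5036 in NC (0.39 ± 0.21) and Prat2 0.32, 2 of 9 genes, beside the same 2.12%. Arc2, a relative of the neuronal gene Arc, had 1482, 1558 and 1693 in IH, against 1176, 1178 and 1153 in NC (0.43 ± 0.15), and cbt, a transcription factor of the TIEG family, had a difference of 0.39.

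Other lists held members on either side or none. Of 19 bright constitutive chaperones, CCT4, a subunit of the cytosolic chaperonin, lay above NC, and Hsc70-3, the Hsp70 of the endoplasmic reticulum, below. In the endoplasmic reticulum list of 17 bright genes, ERp60 lay above and Cnx99A, a calnexin, below beside Hsc70-3. Of 23 bright autophagy genes, Atg16 and ref(2)P, the fly p62, lay above and Atg2 below. The maltase gene Mal-A3 lay above and tobi, a glucosidase, below. Among plasma membrane and endomembrane pumps, Vha55, a subunit of the vacuolar proton pump, and nrv1, a subunit of the sodium pump, were the 2 of 32 bright genes below NC. The 2 of 23 bright ion channel genes below NC were GluClalpha, a glutamate-gated chloride channel, and sei, a potassium channel. GluClalpha differed by -0.69 ± 0.46 in its brightest probe set, and its other probe sets overlapped (-0.38, -0.38 and 0.03). The list of neurotransmitter transporters had CG13794 below, the Notch pathway had neur below, and the circulating and storage proteins had Idgf5 below. Proteasome subunits (Prosalpha2 above, Rpn13 below) and mitochondrial ribosomal proteins (mRpS22 above, mRpL28 below) had 1 gene on each side. The lists of circadian clock genes, gut serine proteases, nuclear receptors, actins and tubulins, JNK and DNA damage response, Turandot and JAK/STAT and the yellow family had 0 bright genes above NC and 0 below.

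The levels of tissue markers varied from array to array, and more among the IH arrays than among the NC arrays in 10 of 11 lists, all but that of the Malpighian tubule. The medians of 18 neuron markers, as the difference from the NC mean, were -0.66, 0.28 and -0.23 on IH1, IH2 and IH3, against -0.28, 0.14 and 0.09 on the NC arrays, and 1 of 18 had a mean difference above 0. Of all genes with a named probe set, 45.0% had a difference above 0. The 14 photoreceptor markers had -0.93, 0.40 and -0.32 in IH, against -0.36, 0.21 and 0.13 in NC, with 1 of 14 above 0. Over all arrays the photoreceptor median was -0.29, which was 0.03 without IH1 and -0.62 without IH2, and the neuron median of -0.21 was -0.01 without IH1 and -0.43 without IH2. The summed signal of the photoreceptor list was 45922 to 134401 in IH, against 74014 to 108339 in NC, and the arrays of the groups overlapped. Ovary and eggshell markers had 17 of 22 above 0, with 0.23, -0.21 and 0.44 in IH, against -0.23, 0.06 and 0.04 in NC. Gut markers had -0.52, 0.35 and 0.33 in IH, against -0.33, 0.14 and 0.14 in NC. Markers of both sexes were present, and the summed signal was 807244 to 1190230 in IH and 694185 to 931480 in NC for ovary and eggshell, and 140668 to 234998 in IH and 165174 to 190902 in NC for testis. The part of these marker levels in the gene differences above was not tested.

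**Figure D5:**
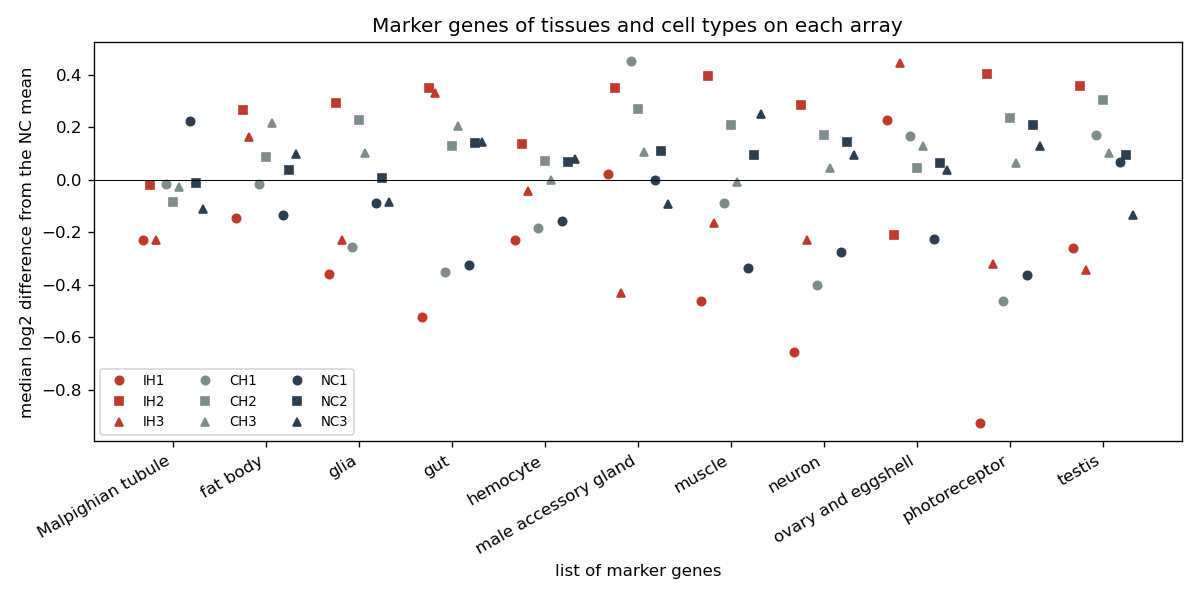
Median difference from the NC mean, on the log2 scale, of 11 lists of marker genes on each of the 9 arrays, with IH, CH and NC from the left and a symbol for each replicate number. The IH arrays are the most spread in all lists but that of the Malpighian tubule, and the replicate 1 arrays of all groups (circles) lie low for gut, neuron and photoreceptor markers.

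The arrays themselves were set side by side in their signal and control probes. The median signal was 594 to 823 in IH, against 675 to 771 in NC. The 3':5' ratio of the GAPDH control probes, a measure of RNA integrity, differed by 0.06 on the log2 scale (exact permutation test, two-sided p = 0.8, where 3 against 3 arrays cannot go below 0.1). For the actin control probes the log2 ratio was 0.72, 0.37 and 0.29 in IH, against 0.96, 0.52 and 0.30 in NC. It was 0.75, 0.34 and 0.42 in CH, so the replicate 1 array was the highest of each group. The part of this ratio in the differences between replicate numbers was not tested. The mean log2 signal of the 18S rRNA control probe sets was 7.07, 10.54 and 10.22 in IH, against 6.88, 6.89 and 7.40 in NC, a difference of 2.22 (p = 0.2, exact permutation test). IH2 and IH3 were high and IH1 was within the range of NC, and whether this control signal has a part in the gene values was not tested.

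Constant hypoxia was measured on 3 further arrays, and the IH arrays can be set against them directly. Under the full test, 2 probe sets were higher in IH than in CH (0.0107%) and 5 were lower (0.0266%). One of those higher was yellow-d2, with 103, 129 and 155 in IH, against 23.9, 18.5 and 28.9 in CH, a difference of 1.86 (limma adjusted p = 0.0384). The other was Ugt37C2, a UDP-glycosyltransferase, with 244, 268 and 268 in IH, against 59.3, 36.9 and 28.8 in CH (2.29, adjusted p = 0.0481). Its NC arrays, at 117, 192 and 200, lay between them, and IH differed from NC by 0.61 ± 0.26. Those lower were 3 probe sets for copies of Hsp70, CG10383 and 1 probe set without a gene name here. The Hsp70Aa and Hsp70Ab probe set had 1622, 1499 and 1830.4 in IH, against 14507, 18881 and 17812 in CH (-3.35, adjusted p = 0.0064), and CG10383 had 5857, 5086 and 5393 in IH, against 20866, 19189.6 and 17595 in CH (-1.82, adjusted p = 0.0294). CG10383 had 6855, 5583 and 4856 in NC, and IH differed from NC by -0.07 ± 0.18. In these 2 probe sets it was CH that stood apart from NC. Ugt37C2 and CG10383 were singled out after their values had been seen.

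Of the genes named above, phu had 2818, 1110.4 and 1817 in IH, against 184, 84 and 209 in CH. The difference between IH and CH was 3.45 (limma adjusted p = 0.0806). MFS14 had 8424, 17002 and 15832 in IH, against 3294, 5813 and 6893 in CH (1.36, adjusted p = 0.569). MtnD had 25590.4, 30735 and 30137 in IH, against 12117, 14126 and 14979 in CH (1.07, adjusted p = 0.26). In these 3 genes the IH arrays were all above the CH arrays, and the limma test was not passed. Mdr49 had 6830.2, 12422 and 7695 in IH, against 5371, 4402 and 4755 in CH (0.84, adjusted p = 0.672). CG34330 had 1218, 2351 and 1921 in IH, against 3946, 10467 and 8798 in CH (-2.01, adjusted p = 0.38), and St1 had 432, 678 and 487 in IH, against 1173, 1383 and 1151 in CH (-1.21, adjusted p = 0.243). The IH arrays of CG34330 and St1 lay below all CH arrays. Drat had 16603, 28092 and 24609 in IH, against 23564, 34723 and 36572 in CH and GstE1 had 3039, 1992 and 1989.7 in IH, against 5114, 4059 and 4138 in CH, with IH below CH by -0.46 and -0.94, and neither passed the test. Other genes named above differed little between IH and CH. The log2 difference, IH minus CH, was 0.08 in FASN3, 0.14 in alpha-Est2, -0.02 in Ugt304A1, 0.01 in Oatp74D and 0.06 in CG44251. A difference from NC is thus not by itself particular to IH. The IH and the CH values have the same NC arrays behind them, and no likeness of the 2 treatments is read from their differences from NC.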

How the data were processed

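Each of the 9 arrays had 1 column of values. The deposited values are signal intensities on a linear scale, which the authors made from scanned arrays with the Bioconductor affy package, with options that the methods do not state. The trimmed mean of every deposited column was 2500, the 183 control probe sets were left out of the tests, and no column was unmatched. Probe sets were named from the platform annotation with current symbols: 13648 had 1 symbol, 401 several and 4720 none.

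Signals were taken as log2(signal + 16) and fitted with limma 3.58.1 (R 4.3.3, lmFit and eBayes) over all 9 arrays with group as the only factor, and p-values were adjusted over all 18769 probe sets. The VAMPIRE program of the study's methods was not run. Arrays give no read depth, and their number, 3 a group, limits the precision.

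Named genes were the 12 with the largest difference in each direction among bright probe sets that did not overlap, the 5 of smallest p, the genes the study names in IH, up to 4 such members (otherwise 2) of each gene list, and 2 on each side of the brightness limit. A gene with several probe sets was counted in lists by the brightest one. Other genes, given to complete a count or as Hph and sima, were chosen after their values were seen. The members and lists were chosen with earlier results of these data known. The search of promoters for motifs was not run, since no promoter table was given.

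Replicate numbers of the labels were taken to pair the arrays by the correlation of deviations from the group means over all probe sets, which was 0.322, 0.162 and 0.113 between IH and NC arrays of the same number and -0.20 to 0.07 between different numbers. The number was used as a block in an alternative. Others were array weights, only IH and NC arrays, a trended robust spread, quantile normalization or median centring, 1 or 50 in place of 16, dim probe sets left out, other limits, and each array left out in turn.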

Additional observations from a re-analysis of the deposited data

Results flagged for a closer look

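The difference between IH and CH passed the limma test for 7 probe sets. Those higher in IH than in CH were yellow-d2, by 1.86 on the log2 scale (limma adjusted p = 0.0384), with 103, 129 and 155 in IH, against 23.9, 18.5 and 28.9 in CH, and Ugt37C2, by 2.29. Those lower in IH were CG10383 (-1.82), a probe set without a gene name here (-2.17) and the Hsp70 probe sets, at -3.35 for that of Hsp70Aa and Hsp70Ab, -4.07 for that of Hsp70Bbb and its copies and -4.32 for that of Hsp70Bc and Hsp70Bb. From NC, IH differed by 1.95 in yellow-d2, 0.61 in Ugt37C2, -0.07 in CG10383 and -1.41 in the probe set without a name. In the Hsp70 probe sets, in the same order, it differed by 0.12, 0.22 and 0.11.

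In a further 6 of the named genes, the IH and CH arrays lay on opposite sides of all NC arrays, and none of their differences between IH and CH passed the test. The log2 difference was 3.45 in phu (limma adjusted p = 0.0806), and CG13659, with 1748, 3043 and 2405 in IH, against 828, 1064 and 1094 in CH, differed by 1.23 (limma adjusted p = 0.26). CG10562, with 4578, 7009 and 7042 in IH, against 2122, 3109.6 and 3237 in CH, differed by 1.13 (limma adjusted p = 0.365). ERp60 had IH above CH by 0.13. St1 had IH below NC and CH above it, with a difference of -1.21 between IH and CH (limma adjusted p = 0.243), and so had fbp (-0.18).

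The 18S rRNA control probe sets, which are outside the gene measurements, had a mean log2 signal above NC by 2.22 in IH, with 7.07, 10.54 and 10.22 in IH, against 6.88, 6.89 and 7.40 in NC. The CH arrays read 8.19, 9.68 and 8.85.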

How the results depend on the processing

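The count of 0 higher and 0 lower by limma held when each of the 9 arrays was left out in turn, with only the IH and NC arrays, with a trended robust spread, after quantile normalization or median centring, with 1 or 50 in place of 16, without the dim probe sets and with an adjusted p alone. The replicate block also gave 0 and 0, with 1057 probe sets at an unadjusted p under 0.05. Array weights gave 57 higher and 102 lower, with the IH side resting mainly on IH3. An unadjusted p with the fold limits gave 228 and 361. Of the fits added after the data were seen, the replicate block with a spread that depends on the mean gave 1 higher (MtnD) and 1 lower (CG34330), over all or over the bright probe sets, and the replicate block over bright probe sets gave 1 lower (CG34330).

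The counts of bright probe sets above and below NC were 494 and 757 with no brightness limit, and 29 and 40 with the fold limits. Leaving out 1 array gave 315 to 1265 above and 421 to 1639 below, where fewer arrays overlap less often by their number; both were highest without IH2 (1265 and 1639) and also moved without IH1 (873 and 1038), NC1 (515 and 824), NC3 (359 and 505) and IH3 (351 and 502), and above NC without NC2 (315). Without the replicate 1 arrays there were 1233 and 1625, and 922 and 1189 had each IH array beyond the NC array of its own number. Both were added after the data were seen, and both are easier to meet where the groups do not differ. Brightness limits of 250 and 1000, the NC mean as the limit, quantile normalization and median centring kept the counts within 1.5 times.

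Of the 144 named genes, the 5 that changed sign under any alternative had small differences. Hsp68 was -0.23 with array weights and -0.082 to 0.31 with 1 array left out, Mrp4 -0.21 to 0.39, BigH1 -0.053 to 0.33, DnaJ-1 -0.064 to 0.19 and Idh3b -0.45 to 0.12. Hsp68 was also -0.04 without NC1, and DnaJ-1 -0.01 without NC2 and -0.02 without NC3. The median difference of 39 of the 59 gene lists turned sign when 1 array was left out. The cause of these changes was not tested.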

Other observations

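Further groups were put together after the values had been seen, and their counts are a description. A group of 5 genes held Tmlh alone for carnitine synthesis, and the others for the carnitine shuttle, which brings fatty acids into mitochondria. All 5 had a difference below 0, with a median of -0.20. In 4 of them the IH arrays all lay below NC, beside 3.03% of all bright genes, a count that follows from a choice made with the values in view. Tmlh, the first enzyme of carnitine synthesis, had 1066, 1074 and 774 in IH, against 1466, 1308 and 1339.5 in NC (-0.50 ± 0.19). The gene whd, for carnitine palmitoyltransferase I, had 16393, 16649 and 14687 in IH, against 16928, 19606 and 18435 in NC (-0.20 ± 0.15). CRAT and colt, the carnitine acetyltransferase and the mitochondrial carrier, differed by -0.20 and -0.20, and CPT2 overlapped (-0.04). From the same NC arrays, CH differed by -0.40 in Tmlh, -0.03 in whd, -0.19 in CRAT, -0.17 in colt and -0.20 in CPT2. None passed the limma test (adjusted p = 1 for Tmlh).

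Of 30 aminoacyl-tRNA synthetases, which load tRNAs with amino acids, 23 had a difference above 0, with a median of 0.05. Among all genes with a named probe set 45.0% did. The median was not taken with an array left out or with another normalization, and members may move together from array to array. AsnRS-m, the mitochondrial asparagine enzyme, had 939.7, 959 and 1169 in IH, against 723, 849.5 and 666 in NC (0.45 ± 0.17), and ThrRS (0.26) and TyrRS (0.10) were the others whose IH arrays all lay above NC, beside 2.12% of all bright genes, while 0 lay below. Of 8 genes of tyrosine, tryptophan and proline metabolism, Hpd, the dioxygenase of tyrosine breakdown, had 4929, 7156 and 7331 in IH, against 10187, 9485 and 8948 in NC (-0.58 ± 0.21), and P5cr-2, a pyrroline carboxylate reductase, differed by -0.36. The CH arrays of Hpd lay above NC on average, by 0.55. None of these genes passed the limma test.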
